A study of Mus musculus with 20 samples.

Results

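The 10 genes described here belong to growth hormone signalling and its targets in the liver. They include the receptor genes Ghr (growth hormone) and Prlr (prolactin), the signal carriers Stat5a and Stat5b and the feedback inhibitors Socs2 and Cish. The others are the secreted products Igf1 and Igfals and the transcriptional repressors Bcl6 and Cux2. All 10 were taken by gene symbol for their place in this pathway, with earlier results of these data known. Each symbol matched 1 of the 25444 loci in the count table, and all 10 passed the filter on low counts that left 13704 genes for testing. Total RNA was taken from the left lateral lobe of the liver in C57BL/6N (B6) and C3H/HeN (C3) mice, 5 separate animals of each sex per strain. All 20 mice were 20 weeks old, and the labels name no treatment or transgene. Females and males had a room each, and the effects of sex and of room cannot be told apart. Libraries were sequenced in 3 pools, with 1 or 2 livers of a group per pool. Library depth was between 27370921 and 46835745 counts. As this is RNA of whole tissue, fewer cells of a type and less RNA per cell cannot be told apart.

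Growth hormone is released by the pituitary in pulses that are separated by quiet intervals in male rodents and follow each other more closely in females. Binding to its receptor activates the kinase JAK2, which phosphorylates STAT5 proteins, and these enter the nucleus and switch on target genes. STAT5b is the main STAT5 of the liver and is needed for the expression of many genes that differ between the sexes. The same signal drives hepatic IGF1 production, and it induces SOCS proteins and CIS, which in turn dampen signalling. Bcl6 is repressed by STAT5 in male liver and can occupy STAT5 sites, and Cux2 is a female-specific repressor of male-biased genes.

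STAT5 binds DNA with the letters TTCNNNGAA, where N is any base, and the BCL6 protein is known to bind similar letters. Both strands read alike in this motif. It was searched in the RefSeq promoter windows of the members (mouse build GRCm38.p6, 250 bases before to 50 after each annotated start). A window was at hand for 9 of the 10 members, with 18 windows in all. The motif occurred in 6 of the 18 windows, which belong to 4 genes, Cish, Prlr, Bcl6 and Igfals. Among all 32851 promoter windows of the same length, 8.3% held at least 1 match, 0.457% at least 2 and 0.0335% at least 3. A wider form, with 1 more base in the gap, occurred in none of the member windows and in 6.95% of all windows. The windows with the most matches belong to Cish and Bcl6. The Prlr window with a match is shown beside them, as Prlr is the receptor with the larger sex difference. It was thus picked after the levels were seen, and a link between matches and levels was not tested. No window of Cux2, the member with the largest sex differences, or of Ghr held a match, and the Igfals windows are not shown. The Bcl6 and Prlr windows shown are not those of the outermost annotated start. At that start the Bcl6 window (chr16:23988803-23989102) held 1 match and the Prlr window (chr15:10176988-10177287) held 0. A further Prlr window (chr15:10293401-10293700) also held 0. Capitals mark the matches.
Cish, chr9:107296409-107296708, plus strand: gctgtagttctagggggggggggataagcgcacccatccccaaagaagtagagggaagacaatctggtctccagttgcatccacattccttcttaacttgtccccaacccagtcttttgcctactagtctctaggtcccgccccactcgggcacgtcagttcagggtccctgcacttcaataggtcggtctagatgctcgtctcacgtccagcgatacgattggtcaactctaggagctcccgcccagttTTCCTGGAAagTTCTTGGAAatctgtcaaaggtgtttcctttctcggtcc
Bcl6, chr16:23981234-23981533, minus strand: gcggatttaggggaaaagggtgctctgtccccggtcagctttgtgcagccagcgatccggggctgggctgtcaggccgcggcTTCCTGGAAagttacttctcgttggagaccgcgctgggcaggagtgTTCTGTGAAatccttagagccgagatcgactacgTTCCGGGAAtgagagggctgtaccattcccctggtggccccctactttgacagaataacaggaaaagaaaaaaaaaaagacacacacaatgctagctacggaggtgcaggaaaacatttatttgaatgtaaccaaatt
Prlr, chr15:10223656-10223955, plus strand: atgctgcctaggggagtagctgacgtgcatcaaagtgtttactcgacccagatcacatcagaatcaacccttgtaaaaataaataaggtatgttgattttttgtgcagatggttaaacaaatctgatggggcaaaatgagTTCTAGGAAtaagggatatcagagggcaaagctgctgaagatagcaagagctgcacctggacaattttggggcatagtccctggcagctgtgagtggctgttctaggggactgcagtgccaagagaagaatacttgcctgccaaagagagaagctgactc
In Cish the matches spanned bases 1 to 9 and 12 to 20 after the annotated start. In the Bcl6 window they began at -168, -122 and -88, and the single Prlr match began at -110. A match is a string of letters and was not measured for binding here.

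In mm9, the build of the count tables, the members lie on 7 chromosomes. Stat5b (chr11:100642045-100711899, minus strand) and Stat5a (chr11:100720665-100746483, plus strand) are neighbours with 8765 bases between them. Ghr (chr15:3267755-3533352, minus strand) and Prlr (chr15:10106993-10278935, plus strand) share chromosome 15, and Socs2 (chr10:94874124-94879491, minus strand) and Igf1 (chr10:87321010-87399792, plus strand) share chromosome 10. Cish is at chr9:107198990-107205115 on the plus strand, Igfals at chr17:25015715-25018953 on the plus strand, Bcl6 at chr16:23965138-23988698 on the minus strand and Cux2 at chr5:122310225-122499860 on the minus strand. Per unit of transcript length, Ghr had the highest mean level of the 10 in every group, between 275 and 348 TPM, followed by Igf1 with 147 to 257 TPM and Igfals with 77.1 to 172 TPM. Cux2 was last or near the end of this order, with means of 5.40 and 9.74 TPM in B6 and C3 females and 0.102 and 0.109 TPM in males. The levels below are CPM, the counts of a gene scaled to library size after TMM normalization, which compare livers but not genes.

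Ghr, the growth hormone receptor, was lower in females than in males of both strains. In B6 females it was 576, 565, 632, 620.3 and 629.6 CPM, and in B6 males 717, 771, 745, 726 and 817 CPM. In C3 females it was 567, 540.3, 577, 573 and 689.7 CPM, and in C3 males 796, 860.3, 801, 805 and 779 CPM. No female liver reached the lowest male liver of its strain. The log2 fold change, female against male, was -0.32 in B6 (SE 0.0536, adjusted p = 0.000181, edgeR quasi-likelihood test) and -0.45 in C3 (SE 0.0546, adjusted p = 5.8e-06). Calls required both an adjusted p below 0.001 and a log2 difference of more than 0.5 in either direction, and Ghr fell short of the fold limit in both strains. Without the C3 female replicate 5, whose 689.7 CPM stood apart from the other 4 females, the C3 difference was -0.50 and passed both limits. Of the 20 fits without 1 liver, only this 1 called Ghr in C3, and 0 did in B6. In both strains 0 of 9 other settings called it. Over these settings the B6 difference was between -0.33 and -0.20, with an adjusted p up to 0.00641, above the limit of 0.001. The C3 difference was between -0.47 and -0.34, with an adjusted p up to 0.0006. Between the strains Ghr differed by 0.09 on the log2 scale in males (SE 0.0546, adjusted p = 0.201) and by -0.04 in females (SE 0.0536, adjusted p = 0.624). Ghr also varied least between livers of a group, with a coefficient of variation from 3.82% to 9.83%.

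Prlr, the prolactin receptor, is a relative of the growth hormone receptor that signals through the same STAT5 proteins, and it had the larger sex difference of the receptors. In B6 females it was 429, 389, 403, 741 and 621 CPM, against 113, 150.1, 59.8, 114 and 119 CPM in B6 males. C3 females had 522, 436, 392.3, 624 and 717 CPM, against 280.0, 195, 255, 189.5 and 198 CPM in C3 males. The sexes did not overlap in either strain. Prlr was 4.61-fold higher in females in B6 (log2 fold change 2.21, SE 0.16, adjusted p = 1.1e-08, edgeR) and 2.45-fold higher in C3 (1.29, SE 0.16, adjusted p = 8.3e-06). Within the 3 pools the log2 difference was between 1.83 and 2.34 in B6 and between 1.13 and 1.59 in C3. The lowest C3 male, at 189.5 CPM, was above the highest B6 male, at 150.1 CPM, and females of the strains overlapped. Prlr was 1.97-fold higher in C3 than in B6 males (log2 fold change 0.97, SE 0.16, adjusted p = 0.000112), and in females the log2 difference was 0.06 (SE 0.16, adjusted p = 0.796). The male strain call was lost without the pool term (adjusted p = 0.00316) and with only the male groups in the fit (adjusted p = 0.00298). The test of the difference itself, the sex-by-strain interaction, gave -0.91 on the log2 scale (SE 0.22, adjusted p = 0.0296), which did not pass the limit of 0.001. Over the alternative fits this adjusted p was between 0.00218 and 0.299. Counts are per gene, so long and short receptor isoforms were not separated for either receptor.

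**Figure D1:**
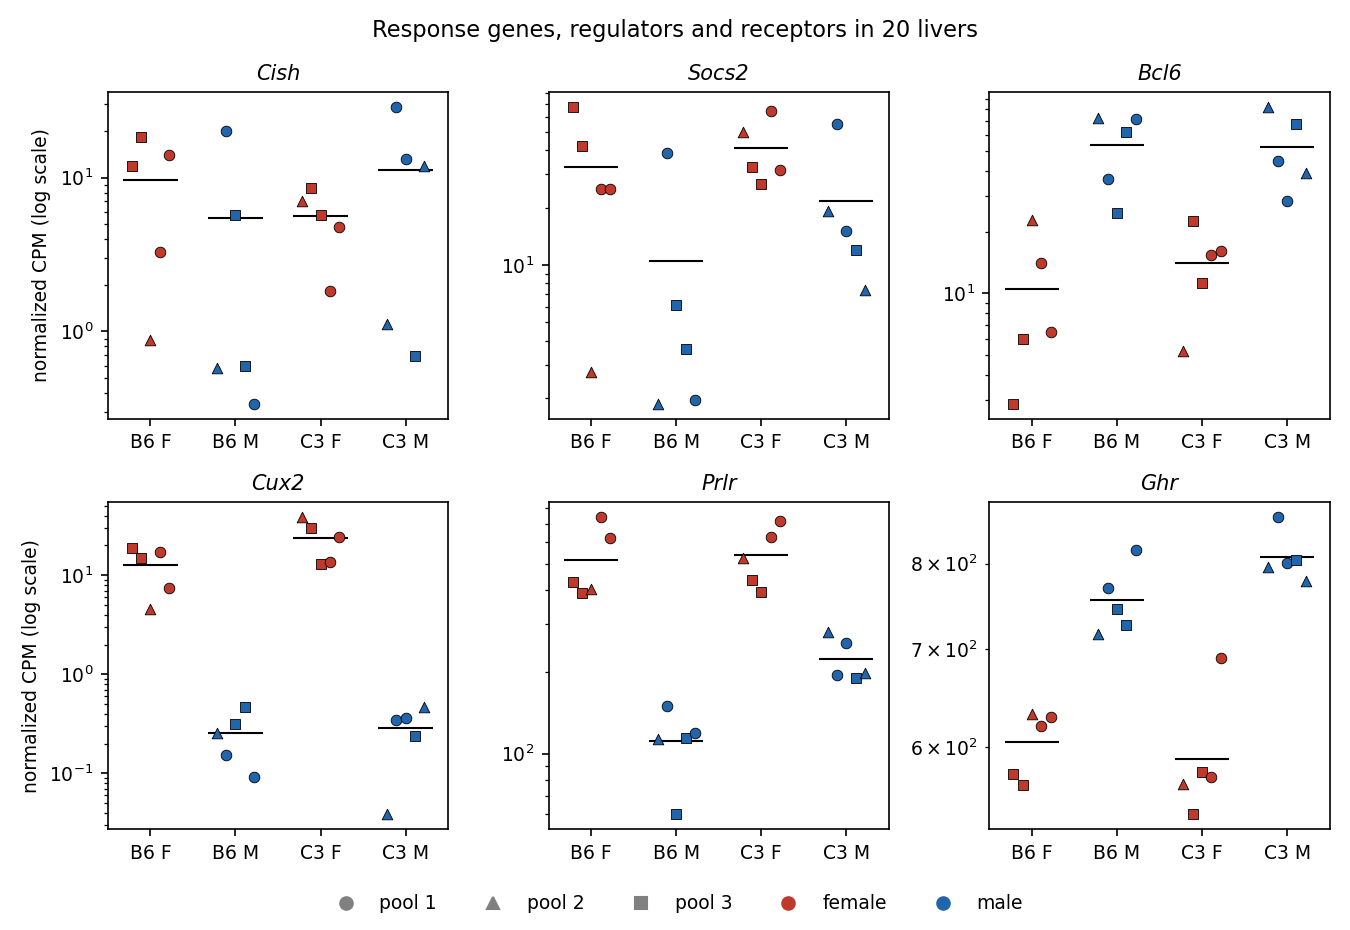
Normalized CPM on a log axis of 6 members in the 20 livers, 1 point per liver, with females in red, males in blue, the pool as the point shape and the group mean as a line. Prlr and Cux2 are higher in every female than in any male of the strain, Ghr and Bcl6 are lower, and Cish and Socs2 spread over more than 10-fold within B6 females and B6 males.

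Stat5a and Stat5b encode the closely related proteins that relay the signal. Stat5b was 83.5 to 129.6 CPM in B6 females (median 103) against 59.4 to 98.4 CPM in B6 males (median 84.5), and 89.0 to 120.8 CPM in C3 females (median 103) against 59.3 to 93.9 CPM in C3 males (median 77.1). The ranges of the sexes overlapped in both strains. The log2 fold change, female against male, was 0.34 in B6 (SE 0.12, adjusted p = 0.0292, edgeR) and 0.45 in C3 (SE 0.12, adjusted p = 0.00633), and neither was called. Stat5a was 20.6 to 26.7 CPM in B6 females and 19.3 to 28.2 CPM in B6 males, with a log2 difference of 0.02 (SE 0.12, adjusted p = 0.897). In C3 it was 17.8 to 30.6 CPM in females and 13.0 to 21.99 CPM in males (log2 fold change 0.53, SE 0.12, adjusted p = 0.00297). This C3 difference was called by DESeq2 (adjusted p = 0.000406) and by limma on log2(TPM + 1) with an adjusted p of 0.000963. It was also called by edgeR without the C3 male replicate 5 (adjusted p = 0.000878). In all, 3 of 9 other settings called it, with an adjusted p up to 0.0273. Of the 20 fits without 1 liver, 1 called it, with an adjusted p up to 0.0104. Stat5a was lower in C3 than in B6 males (log2 fold change -0.46, SE 0.12, adjusted p = 0.00662, edgeR), which was not called. For Stat5b this male strain difference was -0.10 (SE 0.12, adjusted p = 0.527). The Stat5b share of the summed TPM of both genes was 75.7% ± 5.04 in B6 females and 71.5% ± 4.26 in B6 males, with 75.5% ± 2.64 in females and 76.0% ± 3.98 in males of C3 (SD, n = 5). None of the 4 comparisons of this share passed a two-sided exact permutation test, with p between 0.127 and 0.921 before adjustment and a smallest possible p of 0.00794. Read pairs that mapped to both paralogs were not counted, so levels of these genes exclude their shared sequence.

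Socs2 and Cish encode feedback inhibitors that STAT5 induces within a short time of a growth hormone pulse. Cish in B6 females was 11.8, 18.4, 0.877, 3.28 and 14.1 CPM, and in B6 males 0.578, 20.0, 5.73, 0.592 and 0.338 CPM. Values in C3 females were 7.07, 8.58, 5.69, 1.83 and 4.80 CPM, and in C3 males 1.12, 28.9, 13.3, 0.689 and 12.0 CPM. Mice of the same sex and strain thus differed by up to 59.4-fold (B6 males), and the least spread, in C3 females, was 4.68-fold. Socs2 in B6 females was 67.7, 42.2, 2.73, 25.0 and 25.1 CPM, and in B6 males 1.86, 38.9, 6.197, 3.63 and 1.96 CPM. In C3 females it was 50.1, 32.8, 26.7, 64.2 and 31.6 CPM, and in C3 males 19.2, 54.9, 15.0, 12.0 and 7.42 CPM. The male with the highest Socs2 was also the male with the highest Cish in each strain (replicate 2 of both male groups), and the B6 female with the lowest Socs2 had the lowest Cish (replicate 3). The lowest Cish level rested on 11 counts and the lowest Socs2 level on 58 counts, both above the 3 counts taken as the limit of detection.

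Group comparisons of both inhibitors had wide errors. The log2 difference of Socs2, female against male, was 1.86 in B6 (SE 0.77, adjusted p = 0.0694, edgeR) and 1.00 in C3 (SE 0.71, adjusted p = 0.275). Cish differed between the sexes by 0.97 in B6 (SE 0.96, adjusted p = 0.458) and by -0.88 in C3 (SE 1.00, adjusted p = 0.506). Single livers decided these values. Without B6 male 2, the log2 difference in B6 was 3.10 for Socs2 (adjusted p = 0.00253, still not called) and 2.36 for Cish. In C3 it was 0.18 for Socs2 without C3 female 1, and for Cish between -1.71 without C3 female 1 and -0.26 without C3 male 5. No comparison of either gene between sexes or strains was called, and all ranges overlapped. With standard errors of this size, a log2 difference of 1 could not be detected in these genes. Among the 13704 genes tested, Cish ranked 3rd by the variation between mice that edgeR estimated within groups and pools (biological coefficient of variation 1.01), and Socs2 ranked 19th (0.751). Bcl6 (0.493) ranked 112th and Cux2 (0.450) 161st, while Ghr (0.0728) was at percentile 15.2.

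Igf1 encodes the growth factor through which much of the growth hormone effect is exerted, and Igfals encodes the acid-labile subunit that keeps it in the circulation. Igf1 in B6 females was 844, 687, 649, 1011 and 856 CPM, and in B6 males 483, 731, 487, 516 and 716 CPM. C3 females had 969, 857, 830.4, 1098 and 1220.3 CPM, and in C3 males 915, 800.0, 839.7, 792 and 771 CPM. Every C3 male was above every B6 male, and the groups of the other 3 comparisons overlapped. Igf1 was 1.42-fold higher in C3 than in B6 males (log2 fold change 0.51, SE 0.10, adjusted p = 0.000701, edgeR), just past the fold limit. The call was lost in 7 of the 20 fits that left out 1 liver, those without B6 female 3, B6 males 1, 3 or 4, or C3 males 1, 4 or 5, with a log2 difference between 0.44 and 0.51 and an adjusted p between 0.000787 and 0.00572. It was also lost in 5 of 9 other settings. In females the strain difference was 0.29 (SE 0.10, adjusted p = 0.0281). The log2 difference, female against male, was 0.48 in B6 (SE 0.10, adjusted p = 0.00123) and 0.26 in C3 (SE 0.10, adjusted p = 0.0458), neither of which was called. The B6 difference passed both limits without B6 female 3 (0.52, adjusted p = 0.000748) and in 3 of 9 other settings, limma on log2(TPM + 1) and log2(TPM + 0.1) and upper-quartile factors, at 0.58, 0.59 and 0.54.

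Igfals in B6 females was 224, 183, 95.1, 100.01 and 104 CPM, and in B6 males 69.3, 54.6, 107, 103 and 62.3 CPM. In C3 females it was 194, 217, 199, 134 and 109 CPM, and in C3 males 146, 85.1, 95.8, 200.5 and 137 CPM. The groups overlapped in all 4 comparisons. The log2 fold change, female against male, was 0.81 in B6 (SE 0.12, adjusted p = 3.8e-05, edgeR) and 0.28 in C3 (SE 0.12, adjusted p = 0.0603). The log2 fold change, C3 against B6, was 0.84 in males (SE 0.12, adjusted p = 2.0e-05) and 0.31 in females (SE 0.12, adjusted p = 0.0445). The interaction was -0.53 (SE 0.16, adjusted p = 0.0957), so the sex difference was not shown to differ between the strains.

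Igfals also differed between the sequencing pools. The 2 B6 females of pool 3, at 224 and 183 CPM, were well above the 2 of pool 1, at 100.01 and 104 CPM, and the 2 B6 males of pool 3, at 107 and 103 CPM, were above the 2 of pool 1, at 54.6 and 62.3 CPM. Pool 3 was above pool 1 by 0.93 on the log2 scale (SE 0.0943, adjusted p = 8.4e-08, edgeR) and above pool 2 by 0.52 (SE 0.11, adjusted p = 0.000921). Between pools 3 and 1, 20% of all genes tested passed the same limits, between pools 3 and 2, 8.54%, and between pools 2 and 1, 1.16%. Igf1 and Prlr were lower in pool 3 than in pool 1, by -0.35 (SE 0.0811, adjusted p = 0.00120) and -0.60 (SE 0.13, adjusted p = 0.000566) on the log2 scale, and of these Prlr passed both limits. Without the pool term neither Igfals call was made (adjusted p = 0.0568 for sex in B6 and 0.0757 for strain in males). Within pools, B6 females were above B6 males by 0.46 to 0.94 and C3 males above B6 males by 0.63 to 1.03 on the log2 scale.

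**Figure D2:**
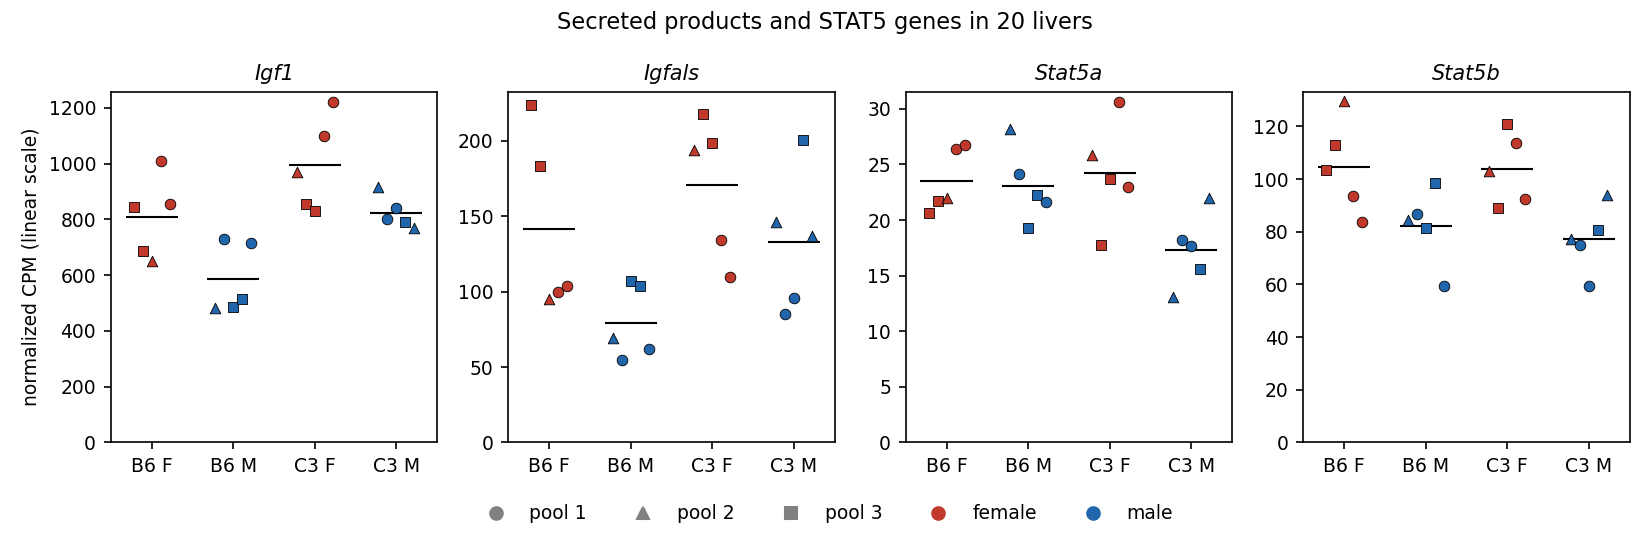
Normalized CPM on a linear axis from 0 of Igf1, Igfals, Stat5a and Stat5b in the 20 livers, with colours, shapes and lines as in the plot of receptors and response genes. For Igfals the pool 3 livers (squares) are the highest of each male group and of C3 and B6 females, and every C3 male is above every B6 male for Igf1.

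Bcl6, a repressor that STAT5 holds down, was lower in females. In B6 females it was 2.87, 5.99, 23.0, 14.04 and 6.46 CPM, and in B6 males 72.6, 36.4, 24.9, 61.8 and 71.7 CPM. C3 females had 5.22, 22.7, 11.3, 15.4 and 16.1 CPM, and in C3 males 82.0, 44.4, 28.3, 67.6 and 39.0 CPM. The sexes did not overlap in either strain, although the highest B6 female, at 23.0 CPM, came close to the lowest B6 male, at 24.9 CPM. Bcl6 was 5.44-fold lower in females in B6 (log2 fold change -2.44, SE 0.48, adjusted p = 0.000712, edgeR) and 3.27-fold lower in C3 (-1.71, SE 0.47, adjusted p = 0.00843), the latter not called. The B6 call was lost in 9 of the 20 fits without 1 liver, with adjusted p between 0.00103 and 0.00327 and a log2 difference between -2.67 and -2.18. The livers were B6 females 1, 2, 4 and 5, B6 males 1, 4 and 5, and C3 females 3 and 5. It was also lost without the pool term (adjusted p = 0.00232) and with only the B6 groups in the fit (adjusted p = 0.00104). Within pools Bcl6 was lower in females by a log2 difference between -3.22 and -1.65 in B6 and between -3.42 and -1.17 in C3. Between strains it differed by 0.62 in females (SE 0.48, adjusted p = 0.355) and by -0.12 in males (SE 0.44, adjusted p = 0.865).

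Cux2, the female-specific repressor, was close to the limit of detection in males. In B6 females it was 18.9, 15.0, 4.55, 17.3 and 7.35 CPM, and in C3 females 38.6, 29.9, 13.0, 13.5 and 24.2 CPM. The 5 B6 males had 3 to 19 counts each (0.0920 to 0.469 CPM) and the 5 C3 males 1 to 13 counts (0.0387 to 0.464 CPM). Cux2 was thus above every male in each female, by a log2 fold change of 5.56 in B6 (SE 0.52, adjusted p = 2.3e-07, edgeR) and 6.30 in C3 (SE 0.52, adjusted p = 4.5e-08). Both calls held in all 9 other settings and all 20 fits without 1 liver, but the size depended on the scale, with 2.41 in B6 and 3.12 in C3 for limma on log2(TPM + 1). Between C3 and B6 females the log2 difference was 0.92 (SE 0.35, adjusted p = 0.0493), which was not called, and their ranges overlapped. The interaction was 0.74 (SE 0.91, adjusted p = 0.758), so the size of the sex difference was not shown to depend on strain.

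Over the 10 members, 4 were called between the sexes in B6 (Prlr, Igfals and Cux2 higher and Bcl6 lower in females), where 6.34% of all genes tested were called. In C3, 2 members were called (Prlr and Cux2, higher in females), against 6.9% of all genes. Between strains, none was called in females against 9.4% of all genes. In males 3 were called, Prlr, Igf1 and Igfals, all higher in C3, against 9.64%. None was called in the interaction, against 0.401%. Without the fold limit, at an adjusted p under 0.05 in edgeR, these counts were 7, 7, 3, 4 and 1, where 34.6%, 40%, 32.9%, 34.5% and 2.96% of all genes passed. DESeq2 and limma on log2(TPM + 1) also called 0 members between strains in females and 0 in the interaction. At an unadjusted p under 0.05 in edgeR, 3 members passed between strains in females, where 41.9% of all genes did, and 3 in the interaction, where 16.1% did. The 5 livers of one group did not overlap the 5 of the other for 4 members in each sex comparison (Ghr, Prlr, Bcl6 and Cux2) and for 2 members between strains in males (Prlr and Igf1), where 10.9%, 13.1% and 15.1% of all genes did not overlap. In females no member separated the strains, against 12.8% of genes. As the members were chosen with earlier results of these data known, these counts describe the members only.

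**Figure D3:**
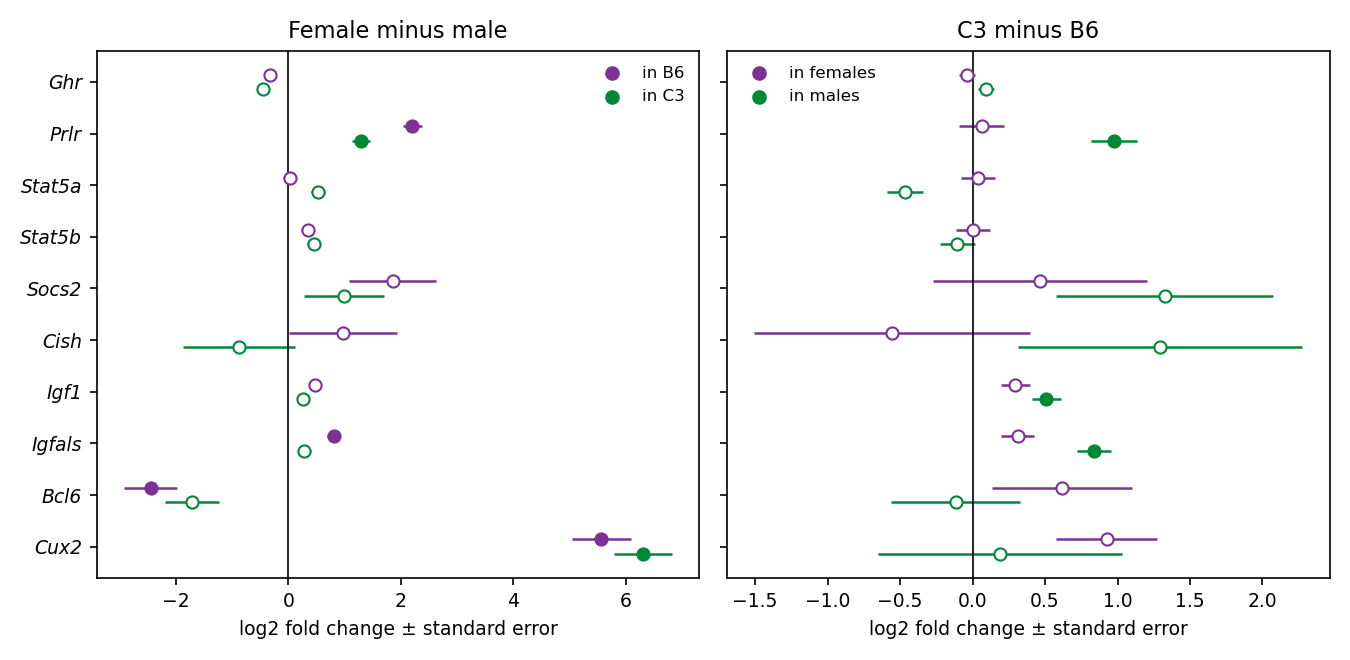
Log2 fold change with its standard error (edgeR) of the 10 members between the sexes (left, with B6 in purple and C3 in green) and between the strains (right, with females in purple and males in green). Filled points passed an adjusted p of 0.001 and a log2 fold change of 0.5. Cux2 has the largest sex differences, 5.56 and 6.30, and Socs2 and Cish the widest errors.

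Of 36 partners of the pathway (kinases, phosphatases, adaptors, other SOCS genes and related receptors), 2 were called in each sex comparison, beside 6.34% of all genes in B6 and 6.9% in C3. Lepr, the leptin receptor, was higher in females of both strains, by 1.03 in B6 (SE 0.19, adjusted p = 0.000395, edgeR) and 2.70 in C3 (SE 0.20, adjusted p = 8.2e-09) on the log2 scale. Pik3r1, a regulatory subunit of PI3 kinase, was lower in B6 females (-0.55) and Socs7 was lower in C3 females (-0.52). Socs4 was higher in C3 in both sexes, by 0.60 in females and 0.71 in males, and Lepr by 1.48 in females. The remaining partners, Jak2 among them, did not pass in any comparison. The median log2 fold change of the list was at most 0.11 in the 4 comparisons, where that of all genes was at most 0.02. Of 22 transcription regulators of the liver, 4 were higher in B6 females and 3 in C3 females, and none was lower in either, beside the same shares of all genes. Trim24, a nuclear receptor cofactor, was higher by 2.30 and 2.23 (B6 and C3), Tox by 1.40 and 3.604, and Esr1, the oestrogen receptor, by 1.39 and 1.01. Between the strains, Cux1 was lower in C3 in females (-0.55) and males (-0.67), Foxa3 was higher in C3 females (1.39) and Tox was lower in C3 males (-2.64), where 9.4% (females) and 9.64% (males) of all genes were called. Tox was the gene of this list whose sex difference passed the interaction test (2.20, SE 0.24, adjusted p = 2.9e-05). The partner and regulator lists were drawn up with earlier results of these data known, so their counts are a description only.

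Liver genes listed for a known sex bias were called in nearly all cases, where 6.34% (B6) and 6.9% (C3) of all genes were. In both strains 18 of 18 female-dominant genes tested were called higher in females, with a median log2 fold change of 7.79 in B6 and 8.89 in C3. Of 18 male-dominant genes, 18 were called lower in females in B6 and 17 in C3, with medians of -3.94 and -4.44. These lists hold genes known to differ by sex and were drawn up with results of these livers known, so their counts describe the setting of the members only. Of 14 clock genes, Nr1d2 was called between the sexes in B6 (0.82, SE 0.16, adjusted p = 0.000604), where 6.34% of all genes were called. None was called in the other comparisons, against 6.9% (sex in C3), 9.4% (strain in females), 9.64% (strain in males) and 0.401% (interaction) of all genes. The median of the clock genes was between -0.21 and 0.37 in the 4 group comparisons and -0.31 in the interaction. The part of the collection time in the members' levels was not tested.

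Defining markers of hepatocytes were at high levels in all livers, with a summed level of 73599 to 159480 CPM over 5 markers. This sum was above every B6 liver in each C3 liver of the same sex, 105800 to 130930 CPM against 73599 to 97859 CPM in males. In C3 females it was 132386 to 159480 CPM, without overlap with C3 males. The median log2 fold change of the 5 markers, female against male, was -0.11 in B6 and -0.25 in C3, so the sum and the median differed in direction. The 5 stellate cell markers summed to 549.9 to 671 CPM in B6 females and 432 to 499.8 CPM in B6 males, and to 457 to 501 CPM in C3 females and 378 to 438 CPM in C3 males, without overlap of the sexes. The 5 Kupffer cell markers summed to 323 to 436 CPM in B6 females and 205 to 324 CPM in B6 males, and to 227 to 345 CPM and 154 to 231 CPM in C3. The 5 endothelial markers summed to 333 to 414 CPM in B6 females and 277 to 326 CPM in B6 males, without overlap, and to 318 to 399.98 CPM and 288 to 350.2 CPM in C3. The 7 lymphocyte markers summed to 2.70 to 3.67 CPM in C3 females and 1.07 to 1.39 CPM in C3 males, without overlap, and the sexes of B6 overlapped, with at most 6.53 and 5.72 CPM. The adipocyte list, with Lep at 0, summed to 0.190 to 0.531 CPM in B6 females and 1.53 to 5.35 CPM in B6 males, without overlap, and to at most 0.661 CPM in C3. Of its 4 genes only Cidec passed the filter on low counts, with means of 0.322 CPM in B6 females and 2.76 CPM in B6 males. The sum thus rests mainly on 1 gene. The 5 cholangiocyte markers summed to 33.0 to 43.6 CPM in B6 males and 21.6 to 29.4 CPM in C3 males, without overlap. The groups of the other comparisons overlapped. The pancreas list, with Prss2 at 0, summed to 0.0641 to 0.813 CPM in B6 livers and at most 0.0300 CPM in C3 livers. Of the 7 genes on the red cell precursor list, 5 matched 1 locus each, and the alpha-globin genes, which did not, were left out. Among the 5, Alas2 alone had counts. The beta-globin genes were at 0 in counts that leave out multimapping and multi-overlapping read pairs, so their level is not known from these data. Alas2, which encodes an enzyme of heme synthesis, was 19.7 to 32.5 CPM in B6 females and 146 to 187 CPM in B6 males, and 15.9 to 28.4 CPM in C3 females and 196 to 226 CPM in C3 males. It was called lower in females, by a log2 fold change of -2.76 in B6 (SE 0.14, adjusted p = 3.7e-11, edgeR) and -3.28 in C3 (SE 0.14, adjusted p = 5.6e-12). Over the 20 livers Alas2 was the gene most like Ghr (r = 0.95), which was also lower in females. This r includes the differences between groups and pools and carries no test. The part of other cell types in the differences of the members was not tested.

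Some pairs of members varied together between livers of the same group. Group and pool were removed from log2 CPM, and the deviations of all 45 pairs of members were compared over the 20 livers with permutation within groups. Cish and Bcl6 moved in opposite directions, with Pearson's r = -0.69 (permutation p = 0.00071, adjusted p = 0.0319) and Spearman's rho = -0.74 (permutation p = 0.00075, adjusted p = 0.0337). Without the 2 livers farthest from the median of Cish, r was -0.67. It was -0.76 within pool 1 and -0.59 within pool 3, and -0.67 over the 10 females and -0.86 over the 10 males. Pool 2 held 5 livers, too few for a value. Leaving out any 1 liver gave r between -0.79 and -0.66. Among 13703 genes other than Cish, Bcl6 was 42nd from the lowest by this r and Socs2 107th from the highest.

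For Cish and Socs2 the deviations had r = 0.64 (permutation p = 0.00635) and rho = 0.61 (permutation p = 0.0105), which did not pass adjustment over the 45 pairs (adjusted p = 0.0819 and 0.154). Without the 2 farthest livers r was 0.53. Socs2 and Bcl6 had r = -0.59 (permutation p = 0.0091, adjusted p = 0.0819) and rho = -0.55 (permutation p = 0.023, adjusted p = 0.207), and r was -0.38 in pool 1 and -0.82 in pool 3. Prlr and Igf1 had r = 0.64 (permutation p = 0.00793, adjusted p = 0.0819) and rho = 0.61 (permutation p = 0.0136, adjusted p = 0.154). Igf1 and Igfals had r = 0.66 (permutation p = 0.00189, adjusted p = 0.0425) and rho = 0.65 (permutation p = 0.00294, adjusted p = 0.0661). That relation depended on the pool: r was 0.34 within pool 1 and 0.87 within pool 3, and with the pool left in it turned to -0.47. Without the 2 livers farthest from the median of Igf1 it was 0.57.

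**Figure D4:**
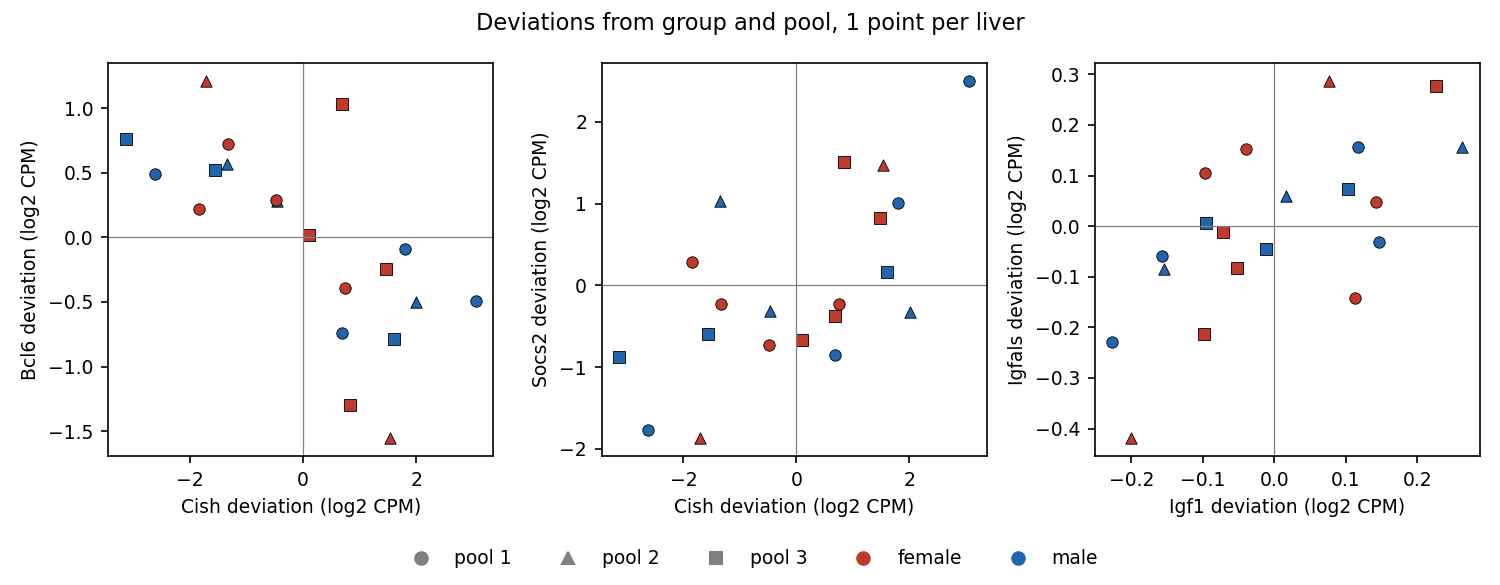
Deviations of log2 CPM from group and pool for Cish against Bcl6, Cish against Socs2 and Igf1 against Igfals, 1 point per liver, with females in red, males in blue and the pool as the point shape. Livers with Cish above the level of their group tend to have Bcl6 below it (r = -0.69), and r was 0.64 for Socs2 with Cish, not past adjustment, and 0.66 for Igfals with Igf1.

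The genes most like Cish in these deviations, out of all others tested, were Foxa2 (r = 0.98), which encodes a hepatocyte forkhead factor, Phlda1 (r = 0.96) and Rnd3 (r = 0.95). In log2 CPM without removal of group and pool, the closest were Foxa2 (r = 0.90), Phlda1 (r = 0.88) and Socs3 (r = 0.86), the last a feedback inhibitor of cytokine signalling. Each of these r values was picked as the highest out of 13703 genes over the same 20 livers and stands as a description. Foxa2 ranged from 20.1 to 51.9 CPM in B6 males (median 26.1) and from 20.0 to 54.8 CPM in C3 males (median 40.6), with 26.7 to 37.7 CPM in B6 females and 22.1 to 37.9 CPM in C3 females. Phlda1 ranged from 3.92 to 52.7 CPM in B6 males and Socs3 from 2.37 to 17.0 CPM, where Cish ranged from 0.338 to 20.0 CPM.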

How the data were processed

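Libraries were strand-specific and depleted of ribosomal RNA. Per the methods and the processing notes, the authors trimmed reads with cutadapt 1.9.1, aligned them to mm9 with STAR 2.5.1b and deposited raw counts of read pairs per RefSeq gene from featureCounts (Subread 1.5.0-p1), without multimapping or multi-overlapping pairs, and deposited TPM values, whose gene length is not given in the sources used here. The headers for symbol and identifier were exchanged and were read by content, and 0 columns of samples were left unused. Counts were normalized by TMM (factors 0.938 to 1.09) and fitted in edgeR 4.0.16 (R 4.3.3) with group and pool over all 20 libraries, after filterByExpr. P-values were adjusted by Benjamini and Hochberg over 13704 genes. Depth put the floor of 3 counts at 0.0641 to 0.110 CPM, which covers counting error only, since PCR reads without molecular identifiers are not independent molecules. Replicates were separate animals (r = 0.972 to 0.993 for log2 CPM within groups), and their differences exceeded counting noise in all 40 pairs.

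Deviations were of log2 CPM (prior count 2) with 100000 permutations. All 10 members were named, with at most 3 called genes per direction of each list and the 3 genes with the highest r for a member, of which 1 is not reported here. Members and lists were chosen with earlier results of these data known. Alternatives were DESeq2 1.42.0, limma 3.58.1 on TPM in log2 (pseudocounts 1 and 0.1), other normalizations, no filter, no pool term, a replicate block, only the groups compared, another threshold and each liver left out. Pool contrasts, within-pool differences and r by sex were added after the data were seen. The test was checked on simulated counts of the same design.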

Additional observations from a re-analysis of the deposited data

Results flagged for a closer look

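On the linear CPM scale, single livers stood apart in 4 of the 40 combinations of member and group by Dixon's criterion for 5 values. Chance exceeds it in about 1 of 20 groups if values are normally distributed, which was not checked. The log2 scale, used for the fold changes, was not tested in this way. Socs2 in B6 males was 38.9 CPM in replicate 2 against 1.86 to 6.197 CPM in the other 4, and Cish in the same liver was 20.0 CPM against 0.338 to 5.73 CPM. Socs2 in C3 males was 54.9 CPM in replicate 2 against 7.42 to 19.2 CPM in the others. Ghr in C3 females was 689.7 CPM in replicate 5 against 540.3 to 577 CPM in the others. Both male livers numbered 2 had the highest Socs2 and the highest Cish of their group, and both were sequenced in pool 1.

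For Prlr the sex difference in C3 minus that in B6 was -0.91 on the log2 scale (SE 0.22, adjusted p = 0.0296 for the interaction in edgeR). This is under 0.05 but not past the limit of 0.001, and over the alternative fits the adjusted p lay between 0.00218 and 0.299. Female mean levels were 517 CPM in B6 and 538 CPM in C3, and male mean levels were 111 and 223 CPM.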

How the results depend on the processing

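Without the pool term 2 members were called between the sexes in B6 and 0 between strains in males, and with only the groups compared 1 was called between strains in males. At an adjusted p under 0.05 without a fold limit the counts were 7 (sex in B6), 7 (sex in C3), 3 (strain in females), 4 (strain in males) and 1 (interaction). Leaving out 1 liver gave 3 to 5, 2 to 3, 0 to 0, 2 to 3 and 0 to 0 calls in that order. Signs turned for differences near 0. Stat5a between strains in females was -0.0365 and -0.0397 on the log2 TPM scales. Stat5b in the same comparison was -0.0024 with DESeq2, -0.0722 and -0.0736 on the log2 TPM scales, -0.0040 with DESeq2 size factors, -0.0293 with upper-quartile factors, -0.0113 without the pool term and -0.0029 with only the females. Without 1 liver, Stat5b there was between -0.0792 and 0.0781, Stat5a between -0.0374 and 0.106, Prlr between -0.0261 and 0.145, Stat5a between the sexes in B6 between -0.0279 and 0.0911, and Bcl6 between strains in males between -0.443 and 0.0522. The Stat5b share differed by -1.92 to 0.663 points between the sexes in C3 and by -1.89 to 1.03 points between strains in females. The correlation of Igf1 with Igfals was -0.472 with the pool not removed. The cause of these changes was not tested.

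The labels name no pairing of same-numbered mice, though some of these shared a pool. Their r was between -0.46 and 0.63 with group removed and between -0.20 and 0.32 after removal of group and pool. Of the 20 livers, 0 correlated best with their own number in every other group. With the replicate block the counts were 4, 2, 0, 3 and 0, no member's call changed, and the Igf1 and Igfals correlation was 0.33. Log2 differences of 1 in Cish and Socs2 could not be detected with 5 mice a group.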

Other observations

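The genes whose log2 CPM over the 20 livers was most like that of the other members differed in kind. For Cux2 they included Cyp2a4 (r = 0.98) and Cyp3a16 (r = 0.97), both enzymes of drug or steroid metabolism. For Prlr they were Cyp2g1 (r = 0.97), Dcaf6 and Fmo1 (r = 0.96 each). For Bcl6 they were Car14 (r = 0.92), a carbonic anhydrase, Acox2 (r = 0.87), an enzyme of bile acid synthesis, and Uox (r = 0.87), the urate oxidase. For Ghr they were Alas2 (r = 0.95), Atp8b4 (r = 0.94) and Rnf11 (r = 0.93). For Igf1 they were Tug1 (r = 0.91), Eps15 and Lrp2bp (r = 0.89 each), and for Igfals Spp2 (r = 0.93), Ctns and Ccdc163 (r = 0.91 each). For Socs2 the closest were 5730420D15Rik (r = 0.89), E2f8 (r = 0.88) and Slc25a30 (r = 0.82), for Stat5a Swap70 (r = 0.88) and for Stat5b Slc8b1 and Slc23a2 (r = 0.89 each). These r values include the differences between groups and pools and carry no test.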
